A study of Arabidopsis thaliana with 3 samples.

Results

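The 10 genes described here encode ethylene response factors (ERFs), plant transcription factors that carry an AP2/ERF DNA-binding domain. They were taken by gene identifier, as RRTF1 (AT4G34410), ERF13 (AT2G44840), ORA47 (AT1G74930), ERF1 (AT3G23240), ERF2 (AT5G47220), ERF5 (AT5G47230), ERF6 (AT4G17490), ERF11 (AT1G28370), ERF104 (AT5G61600) and ERF105 (AT5G51190), and all 10 were found among the 33557 genes of both deposited tables. They were chosen by name with their FPKM ratios for salt and for skip already known, so both sets of ratios are given as a description. RNA was sequenced from Arabidopsis thaliana seedlings aged 11 days that stood for 4 h in liquid MS, a plant growth medium, with or without 200 mM NaCl. The groups were untreated wild type, wild type with salt and the mutant skip with salt, all on the same medium. SKIP is a protein of the spliceosome that also takes part in transcription, and the labels name neither the skip allele nor the wild-type accession. The authors deposited 1 value per gene and group, a merger of 2 replicates, and for this reason neither a replicate error nor a p-value can be given for any difference.

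With salt in wild type, all 10 ERF genes were at least 2-fold higher, against 6.04% of all 33557 genes, and 9 of them at least 4-fold, against 2.1%. In salt-treated skip none of the 10 passed the 2-fold rule against salt-treated wild type, where 2.61% of all genes were lower and 1.63% higher. Of the 10, 8 lay below wild type, against 57.7% of genes with at least 5 FPKM in either group, and ERF5 and RRTF1 lay lowest, while ERF11 and ERF105 lay slightly above it. Since the genes were chosen with these ratios known, the counts describe the choice and are no result about it. All 10 genes have a single exon. Among genes with at least 5 FPKM in either group, the median log2 ratio in skip was -0.39 for single-exon genes and -0.05 for others. That of the 10 was -0.57, and whether exon number has a part in it was not tested.

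ERF proteins bind GC-rich elements such as the GCC box in the promoters of stress and defence genes, and most either activate or repress transcription. In the ethylene pathway, receptors hold the kinase CTR1 active until the hormone binds, after which EIN2 and the factors EIN3 and EIL1 switch on ERF1 and other targets. Many ERF genes also respond within minutes to wounding, osmotic stress and jasmonate, and some ERF proteins are substrates of MAP kinases. In this set RRTF1 belongs to group X of the family, ORA47 to group II, ERF11 to the repressors of group VIII, and the other genes to group IX.

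The values were read as FPKM, a unit inferred from the values and tools. FPKM count sequenced fragments relative to the length of the transcript and the size of the library. Column sums ran from 736286 to 851739 FPKM, and between 24170 and 24882 genes were above 0. From the spacing of low values, 5 FPKM on 1 kb of transcript correspond to a rough 175 to 236 fragments. Salt-treated wild type stands in both tables, higher in the first by a factor of 1.10 for all 10 ERF genes, so ratios were formed within a table except where skip is set against untreated wild type. Of the shoot markers RBCS1A, LHCB2.1 and CA1, 0 of 3 passed the 2-fold rule in either comparison, and RBCS1A was at 8604 to 12449 FPKM in every column. The root markers were present at lower levels, with CASP2 from 12.8 to 1.96 FPKM and PRP3 from 40.6 to 2.33 FPKM after salt. Both were past the 2-fold rule, TIP2;3 went the other way from 2.95 to 17.3 FPKM, and in skip TIP2;3 was lower, with a log2 ratio of -1.39. The part of root tissue in the ERF values was not tested. As the root markers went both ways, less root, less RNA per root cell and changes in single marker genes cannot be told apart in whole seedlings. Of 6 reference genes, 0 passed the rule in either comparison, with ACT2 widest for salt at a log2 ratio of -0.93 and GAPC1 widest for skip at 0.81.

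The annotated upstream regions of 4 of the genes are shown because they span what the motif search found, from none of the motifs searched to 3 of them, and because 3 of the genes lay below wild type in skip and 1 did not. RRTF1 had the largest ratio for salt and ORA47 the third largest. RRTF1, ORA47 and ERF104 had near-equal log2 ratios in skip, -0.87, -0.81 and -0.78, and ERF11 had 0.11. Whether upstream motifs go with the ratios was not tested. Each run gives the 250 bases before the gene's annotated start in RefSeq's TAIR10.1 genome, on the strand of the gene, with capitals for motif matches on either strand. RRTF1 is at chr4:16451626-16451875 (plus strand), ORA47 at chr1:28143601-28143850 (plus strand), ERF104 at chr5:24767733-24767982 (minus strand) and ERF11 at chr1:9956981-9957230 (minus strand).
RRTF1: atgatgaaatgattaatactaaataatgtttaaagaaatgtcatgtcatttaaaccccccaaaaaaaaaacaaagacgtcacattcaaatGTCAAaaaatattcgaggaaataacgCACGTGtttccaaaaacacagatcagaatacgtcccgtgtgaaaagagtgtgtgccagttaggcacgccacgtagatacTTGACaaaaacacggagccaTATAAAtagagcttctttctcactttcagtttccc
ORA47: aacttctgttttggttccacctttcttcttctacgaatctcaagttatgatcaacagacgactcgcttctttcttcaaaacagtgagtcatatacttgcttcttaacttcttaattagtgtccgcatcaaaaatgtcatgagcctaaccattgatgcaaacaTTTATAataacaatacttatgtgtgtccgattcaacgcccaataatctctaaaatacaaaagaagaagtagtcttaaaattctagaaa
ERF104: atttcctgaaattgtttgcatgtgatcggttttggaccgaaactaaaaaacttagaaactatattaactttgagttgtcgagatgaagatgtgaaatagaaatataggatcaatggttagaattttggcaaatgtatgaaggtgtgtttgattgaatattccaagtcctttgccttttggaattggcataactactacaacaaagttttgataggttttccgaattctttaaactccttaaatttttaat
ERF11: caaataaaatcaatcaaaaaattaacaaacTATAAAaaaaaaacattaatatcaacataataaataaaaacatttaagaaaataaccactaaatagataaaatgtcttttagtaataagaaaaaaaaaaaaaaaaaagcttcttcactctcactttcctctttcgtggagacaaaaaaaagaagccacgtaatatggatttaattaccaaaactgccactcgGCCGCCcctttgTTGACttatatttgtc
The motifs searched were the GCC box GCCGCC, the W box core TTGAC bound by WRKY factors, the rapid stress response element CGCGTT, the G box CACGTG, the core CCGAC of the drought-responsive element, and TATAAA. RRTF1 holds a G box and 2 W box cores, ERF11 a GCC box 28 to 23 bases before its start and a W box core, both also a TATAAA match, ORA47 a TATAAA match alone, and ERF104 no match. A W box core was found upstream of 6 of the 10 genes and of 45.0% of the 26686 nuclear protein-coding genes in the tables. TATAAA was found in 7 of 10 against 47.7%, the G box in 2 (RRTF1 and ERF2) against 6.57%, the core CCGAC in 1 (ERF5) against 11.9%, and the GCC box in 1 (ERF11) against 1.85%. CGCGTT was in 0 of the 10 windows and in 2.59% of all. In ERF6 a pair of TATAAA matches on opposite strands overlap, and no other matches overlap.

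**Figure D1:**
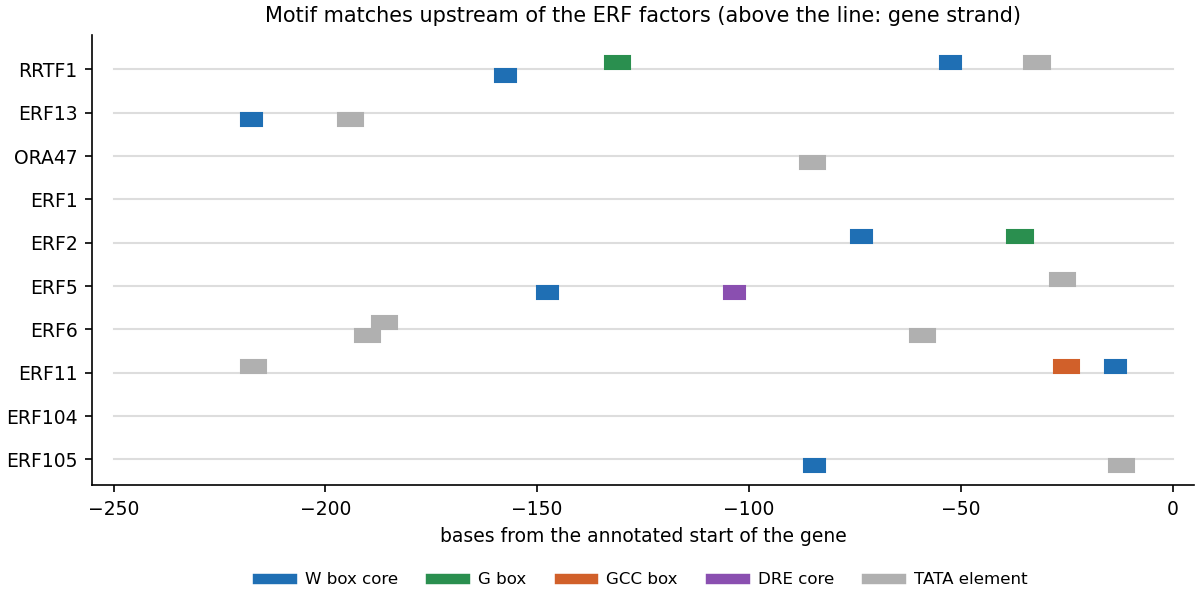
Matches of 5 motifs in the 250 bases upstream of each ERF gene, with the distance from the annotated start in bases on the x axis and 1 gene per line; blocks above a line are on the strand of the gene, those below it on the other strand. Of the 10 genes, 6 show a W box core, and ERF1 and ERF104 show no match.

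The first comparison asks how the ERF transcripts of wild type stood after 4 h of salt. Before salt all 10 were scarce, between 0.174 and 4.76 FPKM with a median of 1.44 FPKM. With salt they lay between 9.65 and 118 FPKM with a median of 45.7 FPKM. Every one of the 10 was at least 2-fold higher on the log2 scale of FPKM + 1, against 6.04% of all 33557 genes, none was at least 2-fold lower, against 3.81%, and 9 were at least 4-fold higher, against 2.1% of all genes. The median log2 ratio of the 10 was 3.28, and that of all genes 0. Because the genes were chosen with these ratios known, nothing is read from those counts. The summed level of the 10 genes went from 19.3 to 515 FPKM, which is 26.7-fold.

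The largest ratios were those of RRTF1, ERF13 and ORA47. RRTF1, a factor induced by redox stress that links jasmonate to auxin synthesis, went from 0.350 to 118 FPKM, a log2 ratio of 6.46 and the rank 4 among all genes. ERF13, a factor that binds the GCC box, went from 0.349 to 67.4 FPKM, with a log2 ratio of 5.66 and rank 9. ORA47, which activates genes of jasmonate synthesis, went from 1.86 to 113 FPKM, with a log2 ratio of 5.32 and rank 17. Without salt these 3 genes were at percentiles 36.9, 36.9 and 45.8 of level among all 33557 genes, of which 24170 were above 0. With salt they were at percentiles 97.0, 94.2 and 96.8. Their untreated values are thin, since they rest on an estimated 17.4 fragments for RRTF1, 13.9 for ERF13 and 80.2 for ORA47. With a pseudocount of 0.1 the ratio of RRTF1 was 8.04 and that of ERF13 7.23. With one of 5 they were 4.52 and 3.76, and ORA47, at 4.11, then stood above ERF13.

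ERF6 and ERF104, whose proteins are phosphorylated by MAP kinases, reached intermediate to high levels. ERF6, which also restrains leaf growth under osmotic stress, went from 2.09 to 71.7 FPKM with a log2 ratio of 4.55. ERF104 went from 4.62 to 53.3 FPKM with a log2 ratio of 3.27. ERF2, an activator of jasmonate-responsive defence genes, went from 3.24 to 38.1 FPKM with a log2 ratio of 3.21. Of these, ERF104 started from a higher level than ERF6 and ended below it.

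ERF1, ERF11 and ERF105 reached lower levels, and their ratios also depend on the pseudocount. ERF1, which joins the ethylene and jasmonate signals, went from 0.174 to 9.65 FPKM with a log2 ratio of 3.18, and stayed the lowest of the 10 in both groups. Its untreated value rests on an estimated 6.1 fragments, and its ratio was 5.15 with a pseudocount of 0.1 and 1.501 with one of 5, where ERF104 had 3.498 and 2.598. ERF11, a repressor, went from 0.833 to 16.8 FPKM with a log2 ratio of 3.28. ERF105, a factor of cold and freezing tolerance, went from 1.03 to 14.3 FPKM with a log2 ratio of 2.91. With the pseudocounts of 0.1 and 5, ERF11 had 4.18 and 1.91, and ERF105 had 3.67 and 1.68.

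ERF5, a close relative of ERF6 that acts with it in growth control under osmotic stress, had the smallest ratio. It had the highest level of the 10 without salt, 4.76 FPKM, and stood ninth with salt at 11.8 FPKM, with a log2 ratio of 1.15. With a pseudocount of 5 its ratio was 0.78 and under the 2-fold rule. The order of the 10 was thus rearranged. ERF5, ERF104 and ERF2 made up 65.4% of their summed level without salt, while RRTF1, ORA47 and ERF6 made up 58.9% with salt. Between neighbours in these orders the levels often differed by little, such as 1.03-fold between ERF5 and ERF104 without salt and 1.04-fold between RRTF1 and ORA47 with salt, and whether such neighbours differ cannot be said without replicate values.

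**Figure D2:**
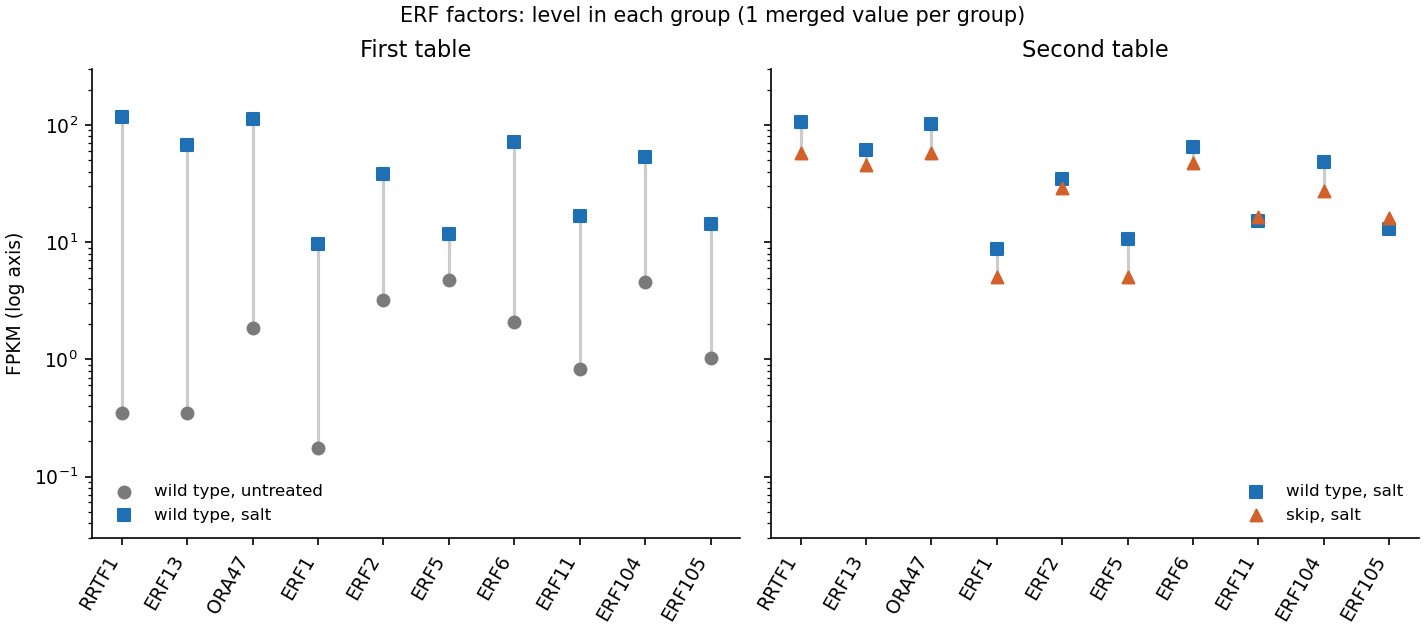
Level of each ERF gene in FPKM on a log axis, 1 merged value per group: wild type without and with salt (first table, left), wild type and skip with salt (second table, right), with a grey line joining both values of a gene. All 10 genes stand higher with salt, by the least for ERF5, while in skip 8 stand below and 2 above wild type.

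Annotation limits 3 of these values. The RRTF1 locus overlaps 2 loci on the opposite strand, a long non-coding RNA over 661 nt and the protein-coding AT4G34412 over 301 nt, and 59.2% of its 50-mers also occur in other annotated transcripts. AT4G34412 itself was flat, at 10.5 and 9.90 FPKM without and with salt, and the non-coding RNA is not among the genes of the tables. ERF105 lies wholly inside an annotated transcript of AT5G51180 on the opposite strand, so 100% of its 50-mers are shared, and AT5G51180 stood at 11.8 and 12.8 FPKM. ORA47 shares 4.83% with AT1G74929, which was listed at 0 in all columns. The other 7 genes share 0% with any annotated transcript. No source used here states the strand setting, so reads of such partners cannot be told apart.

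The second comparison asks how the same genes stood in skip after the same treatment. It shares the salt-treated wild type with the first, where that group is the numerator and here the denominator. In skip the 10 genes lay between 5.03 and 58.1 FPKM, against 8.73 and 107 FPKM in wild type. On the log2 scale of FPKM + 1, none of the 10 was at least 2-fold lower, against 2.61% of all genes. None was at least 2-fold higher, against 1.63% of all genes. In FPKM without the added 1, ERF5 had 47.8% of the level in wild type. The median log2 ratio was -0.57, with 8 of 10 below 0. Among the 14951 genes with at least 5 FPKM in either group, the median was -0.08 and 57.7% were below 0. The summed level of the 10 in skip was 66.4% of that in wild type. An untreated skip group is not analysed here, so a weaker salt response and a lower level that is there without salt cannot be told apart.

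ERF5 and RRTF1 were lowest relative to wild type. ERF5 had 10.6 FPKM in the wild type against 5.08 FPKM in skip, which is 47.8% of wild type and a log2 ratio of -0.94. With a pseudocount of 0.1 its ratio was -1.05 and past the 2-fold rule. RRTF1 had 107 FPKM against 58.1 FPKM in skip, 54.3% of wild type and a log2 ratio of -0.87. ORA47, at 103 and 58.0 FPKM, had 56.6% of the wild-type level and a log2 ratio of -0.81. ERF104 was at 48.2 FPKM in wild type but 27.6 FPKM in skip, with a log2 ratio of -0.78. For ERF1 the values were 8.73 and 5.03 FPKM, with a log2 ratio of -0.69. These 5 genes, which are of low and of high level alike, had from 47.8% to 57.7% of the level in wild type.

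The other genes lay closer to wild type. ERF6 went from 64.9 to 47.3 FPKM with a log2 ratio of -0.45, and ERF13 from 61.0 to 46.0 FPKM with -0.40. ERF2, at 34.5 and 29.2 FPKM, had -0.23. ERF11, the only repressor of group VIII among the 10, had 15.2 FPKM in wild type, 16.5 FPKM in the mutant and a log2 ratio of 0.11. ERF105 was at 13.0 and 16.2 FPKM, a log2 ratio of 0.30, while its overlapping partner AT5G51180 had 11.6 and 11.7 FPKM.

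When skip was brought to the scale of the first table by the factor of 1.10, a level set across tables that were scaled separately, all 10 genes were above untreated wild type, against 47% of the 15835 genes with at least 5 FPKM in either group. Of the 10, 9 were at least 2-fold above it, against 6.11% of all genes. Because the genes were chosen with their salt and skip ratios known, nothing is read from these counts either. The exception was ERF5, at 5.61 FPKM in salt-treated skip against 4.76 FPKM in untreated wild type, a log2 ratio of 0.20. RRTF1 at 64.2 FPKM and ERF13 at 50.9 FPKM lay farthest above untreated wild type, with log2 ratios of 5.59 and 5.26.

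Gene structure was not itself used in the choice of genes, but it goes with family group. Of 32 other ERF genes listed below, 20 have 1 exon, and these are all those of group IX, group VIII and the ORA47 relatives. All 10 genes of the set have 1 exon in every annotated transcript, against 18.9% of 26687 nuclear protein-coding genes in the tables. Their transcripts are 965 to 1389 nt long against a median of 1541 nt. Among genes with at least 5 FPKM in a group, the 1599 single-exon genes had a median log2 ratio of -0.39 in skip and 80.1% were below 0. The 13033 genes with more exons had a median of -0.05, and 55.2% were below 0. For salt, 23.3% of 1818 single-exon genes and 9.24% of 13709 others were at least 2-fold higher. At least 2-fold lower in skip were 11.1% of the single-exon and 3.68% of the other genes. Within the length range of the 10 ERF transcripts the medians were -0.41 for 458 single-exon genes and -0.11 for 2506 others. The 8 of 10 ERF genes below 0 are thus near the share of their exon class. Whether exon number has a part in their ratios was not tested.

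**Figure D3:**
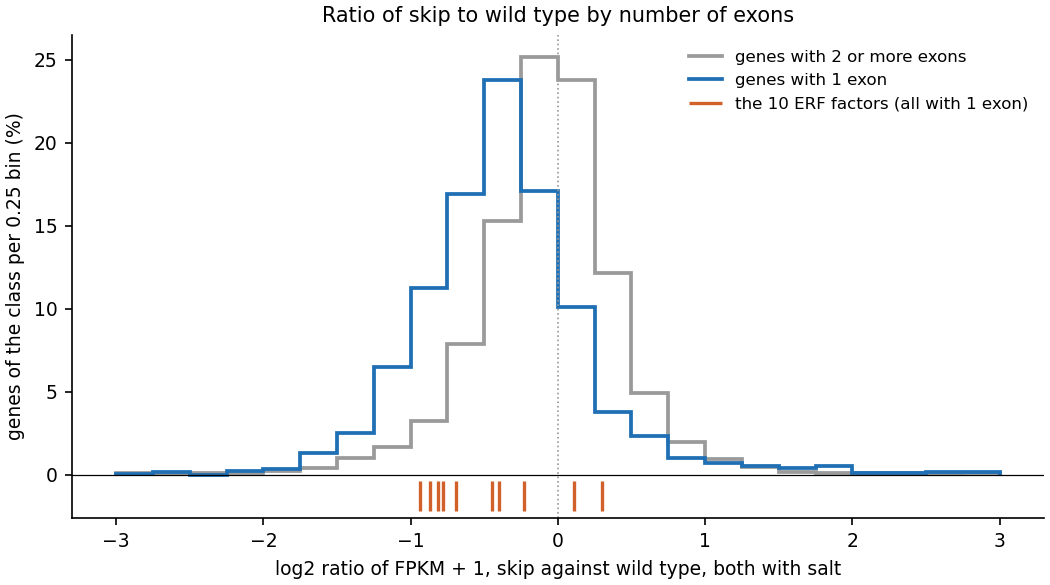
Share of genes per bin of 0.25 in the log2 ratio of skip to wild type, both with salt, for genes with 1 exon (blue) and with 2 or more (grey), values beyond the axis being placed in the outermost bins; orange ticks mark the 10 ERF genes. The blue curve lies left of the grey one, and 8 of the 10 ticks lie below 0.

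The wider family was not uniform under salt. Of 10 other group IX genes, 3 passed the 2-fold rule upwards with salt and 2 downwards, and the median log2 ratio was 0.08. ERF1A was higher, from 5.51 to 87.1 FPKM, as were ERF98, from 0.859 to 10.4 FPKM, and ESE1, listed at 0 and then at 6.89 FPKM. ERF107, also named DEWAX and a repressor of wax synthesis, was lower, from 35.4 to 6.71 FPKM, and ERF106 was lower too, from 30.1 to 10.8 FPKM. In skip 1 of these 10 was lower and none higher, and the median was -0.37. The lower gene was ERF15, from 9.86 to 4.25 FPKM, a log2 ratio of -1.05 that stands close to the rule.

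Group X, to which RRTF1 belongs, and the relatives of ORA47 were mostly higher with salt. Of 7 other group X genes, 6 were at least 2-fold higher and none was lower, and the median was 2.14. RAP2.6 went from 13.7 to 241 FPKM, above every one of the 10 ERF genes, ABR1 from 3.44 to 53.4 FPKM and RAP2.6L from 6.28 to 35.3 FPKM. ERF115, ERF112 and ERF114 had log2 ratios of 2.14, 1.95 and 1.58. None of the 7 passed the rule in skip, and their median was -0.07. All 3 relatives of ORA47 were higher with salt, ERF019 with a log2 ratio of 4.48, ERF016 with 4.10 and ERF017 with 3.29. Of these 3, 0 passed in skip, and their median was -0.59.

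The repressors of group VIII and the factors of group VII, which act in low oxygen, had smaller median ratios with salt than the set. Of 7 other group VIII genes, ERF8 and ERF4 were higher with salt, with log2 ratios of 1.76 and 1.33, none was lower, and the median was 0.70. In skip 0 of the 7 passed the rule and all 7 lay below 0, with a median of -0.56. All 7 have 1 exon. ERF11, of the same group, did not lie below 0. Of 5 group VII genes, 1 was higher with salt, HRE2, from 0.28 to 7.33 FPKM, and the median was 0.22. HRE2, which responds to low oxygen, was also higher in skip, from 6.63 to 36.6 FPKM, while the median log2 ratio of the 5 was -0.10. Over these 5 lists, the 20 single-exon ERF genes had a median of -0.45 in skip with 15 below 0. The 12 genes with more exons had a median of -0.08 with 7 below 0. The 20 are all the listed genes of group IX, group VIII and the ORA47 relatives, and the 12 all those of groups X and VII. Exon number and family group therefore cannot be told apart in these lists.

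Genes of the pathway upstream of the ERF factors were mostly within the 2-fold rule. Of 11 ethylene receptors and signalling genes, 1 was higher with salt and none lower, and the median was 0.23. The higher gene was the receptor ERS2, from 3.56 to 12.7 FPKM, while EIN3 stood at 45.8 and 53.7 FPKM and EIL1 at 26.1 and 32.3 FPKM. In skip 0 of 11 passed, with a median of 0.03, and EBF2, an F-box protein that removes EIN3, was widest at 0.64. Of 5 genes for MAP kinases and MAP kinase kinases, the kinase kinase MKK9 was higher with salt, with a log2 ratio of 1.66. The median of the 5 was 0.57. For skip, 0 of 5 passed, and the median was -0.20.

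Targets known from studies of single ERF proteins formed short lists, chosen with earlier results of these data known. The lists differed in their share of genes at least 2-fold higher with salt, which was 6.04% over all genes. All 4 targets of ERF5 and ERF6 were higher with salt, ZAT10 with a log2 ratio of 4.76, WRKY33 with 3.98, GA2OX6 with 2.85 and MYB51 with 2.76, and 0 of 4 passed in skip, with a median of -0.21. Of 9 jasmonate synthesis genes bound by ORA47, LOX3, LOX4, AOC3 and OPR3 were higher with salt, with log2 ratios of 3.42, 3.39, 2.25 and 1.17, none was lower, and the median was 0.83. None of the 9 passed in skip, where the median was -0.21. LOX2 and LOX4 were widest there, with ratios of -0.98 and 0.96. Of 4 defence targets of ERF1, the chitinase HCHIB was higher, from 14.5 to 62.2 FPKM, and the defensin PDF1.2 lower, from 12.5 to 5.30 FPKM, with a median of -0.04. The 4 stayed within the rule in skip, with a median of -0.63 and HCHIB at -0.96. Of 2 targets of RRTF1 in auxin synthesis, 0 passed in either comparison. ASA1 stood at a log2 ratio of -0.35 and YUC2 at -0.66 with salt.

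**Figure D4:**
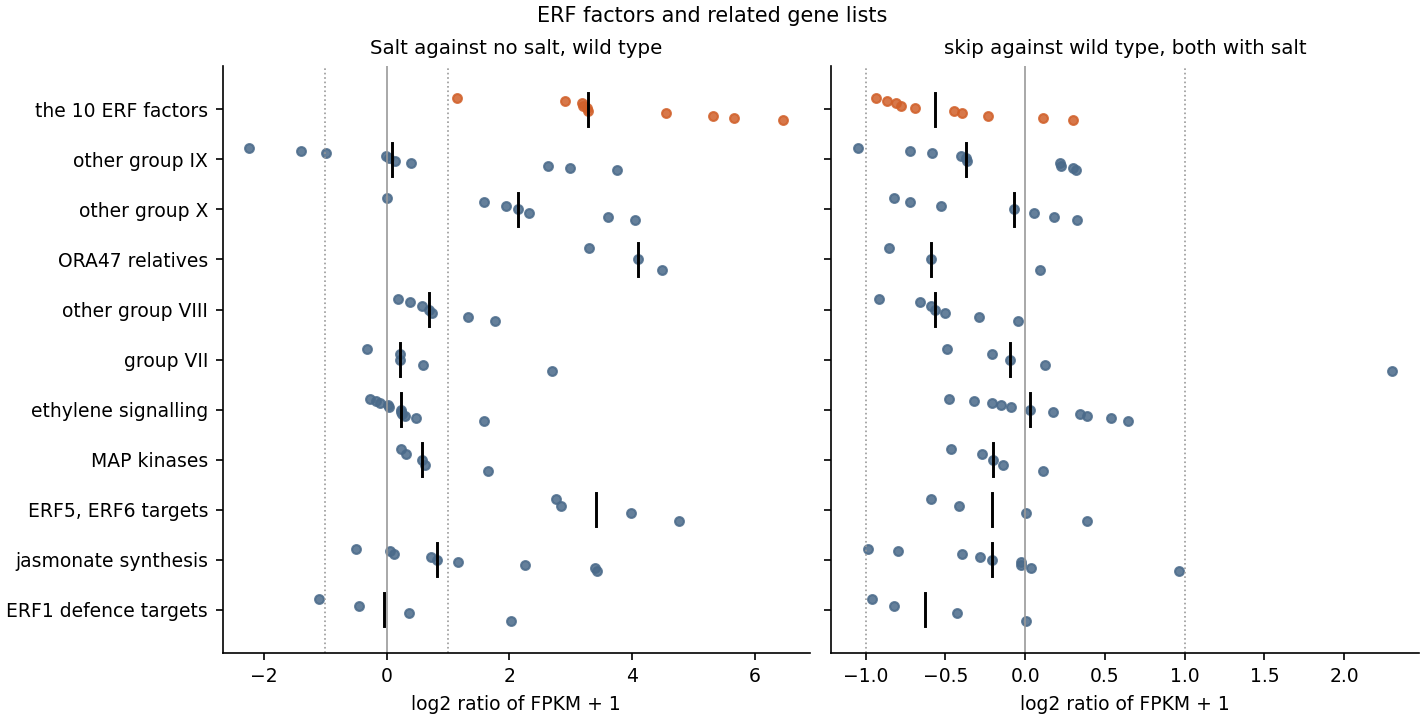
Log2 ratio of FPKM + 1 for each gene of the ERF set (orange) and of 10 related lists (blue), for salt in wild type (left) and for skip against wild type with salt (right); black bars are medians of a list, dotted lines the 2-fold rule, and the x axes differ. The 10 ERF genes lie right of the rule on the left side, and all lie within it on the right side.

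Adjacent ERF genes did not always share a direction or a size of ratio. ERF6 and ERF1A lie 5041 bp apart in opposite directions on chromosome 4, and both were higher with salt, with log2 ratios of 4.55 and 3.76. ERF1 and ERF98, 5452 bp apart, had 3.18 and 2.62. ERF104 and ERF107 lie 832 bp apart on the same strand, and their ratios were 3.27 and -2.24. ERF11 and ERF12, 2668 bp apart, had 3.28 and 0.19. Distances are those of TAIR10.1.

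Likeness to the set was measured as the distance between the pair of log2 ratios of a gene and the median pair of the set, over both comparisons. Among 16063 other genes with at least 5 FPKM in a group, the 5 nearest were AT2G28400, AT5G15190, the dehydrin ERD10, the jasmonate repressor JAZ10 and the scaffold protein BT1. For salt their ratios spanned 3.22 to 3.29, for skip -0.62 to -0.50, with distances of 0.0156 to 0.0714. ERD10 was far more abundant than the ERF genes, with 1325 FPKM after salt in the first table. Within the set, the closest pair depended on the pseudocount. It was ERF1 and ERF104 with 1, at a distance of 0.13, ERF1 and ERF6 with 0.1, at 0.35, and ERF11 and ERF105 with 5, at 0.27. With each of these 3 pseudocounts ERF5 was the gene farthest from its nearest neighbour in the set, at 2.05, 2.22 and 0.74 in the same order.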

How the data were processed

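RNA of whole seedlings was sequenced in 3 groups. The deposited values were read as FPKM, which the authors made with TopHat, a spliced aligner, and Cufflinks, an estimator of transcript levels, on TAIR10, per the submitters' processing notes. No source used here gives versions, the strand setting, the way of merging replicates or the unit itself, which was inferred from the values and tools. All 4 value columns of the 2 tables were used.

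Log2 ratios of FPKM + 1 were formed within each table, and across them only for skip against untreated wild type, with Python 3.11.15 and pandas 2.3.3. This pseudocount of 1 understates the change of low genes. A ratio of at least 1 in size, the 2-fold rule, is a rule of size, with no test behind it. Low values were not filtered. Salt-treated wild type differed between the tables by a median factor of 1.10, and 24822 of 24882 genes lay within 0.1% of it.

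The ERF genes, and 14 lists with 79 genes, were chosen with earlier results of these data known. Named are the ERF genes, the 3 widest genes of a list in each comparison and those past the rule, and the 5 genes nearest in ratio; EIN3, EIL1, AT5G51180, AT4G34412, AT1G74929 and adjacent ERF12 were named after their values were seen. Not all genes the rule takes are printed. Exons, overlaps and upstream sequence came from RefSeq's TAIR10.1, which matched 32810 of 33557 identifiers; the tables hold no coordinates.

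Fragments were estimated from steps in the low values of single-transcript genes over 800 nt. Between 54.0% and 72.3% of these values lay within 0.15 of a whole step, against 30% by chance, so whole reads were not recovered, no count test was run, and the estimates are rough and bear on counting error only.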

Additional observations from a re-analysis of the deposited data

How the results depend on the processing

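With a pseudocount of 0.1, the median log2 ratio of the 10 ERF genes for salt was 4.61, and 1 gene, ERF5, was at least 2-fold lower in skip; with a pseudocount of 5 the salt median was 2.49, and 9 of the 10 were at least 2-fold higher. Under the 4-fold rule 9 were higher with salt. The remaining counts and the skip median moved by less than 1.5-fold with the other pseudocounts, a filter at 1 FPKM and ratios centred on the median gene. All 10 salt ratios were above 0, and 8 of 10 skip ratios below 0, with either pseudocount and after centring. No paired analysis was possible because the replicates of each group are merged into 1 value, which also leaves no replicate to leave out. Depth limits the untreated values of RRTF1, ERF13 and ERF1 most.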
